A study of Homo sapiens with 4 samples.

Results

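JUNB, JUND and KLF2 are early-response transcription factor genes, chosen by symbol from a table of 6434 genes in which all 3 are listed. This gene table gives linear array intensities. It holds 5210 one-peak genes, whose transcripts have 1 peak of N1-methyladenosine (m1A), and 1224 non-m1A genes, which have none. All 3 members are one-peak genes. The RNA came from HepG2, a human hepatoma cell line, kept in DMEM with no stimulus or genetic change named in the labels. The mRNA, poly(A)-selected in 2 rounds, was measured on arrays before (input, n = 2) and after an anti-m1A antibody had removed what it bound (supernatant, n = 2). Columns are named input A, supernatant A, input B and supernatant B. Whether the samples of a group were separate cultures is not stated, and the p-values reflect their spread alone, which could be technical.

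m1A is an adenosine with a methyl group on the edge that pairs with uridine, so it blocks normal base pairing. If an antibody removes methylated transcripts, the share of a transcript that is missing from the supernatant estimates its methylated fraction. JUNB and JUND pair with FOS-family proteins to form AP-1, a leucine-zipper dimer that binds DNA. KLF2 is a zinc-finger factor best known from endothelial cells and T cells. Genes of this class are known for transcripts that are made within minutes of a stimulus and decay quickly, although JUND is also transcribed steadily in many resting cells. No time course or half-life was measured here, so the early-response label is background and not a result.

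The windows before the 3 transcription starts are shown because the members were picked as GC-rich transcripts. These bases lie before the transcripts, and the GC share of the transcripts was not measured beyond their first 50 bases. Each is the 250 bases upstream of the RefSeq start in GRCh38.p14, 5′ to 3′ on the gene's strand. They lie at chr19:12791236-12791485 (plus strand) for JUNB, chr19:18281623-18281872 (minus strand) for JUND and chr19:16324576-16324825 (plus strand) for KLF2, so all 3 genes sit on chromosome 19. Capitals mark every match, on either strand, to 8 motifs. They are the TATA box core TATAA, the CCAAT box, the GC box GGGCGG, the cyclic AMP response element TGACGTCA, the AP-1 site TGANTCA, the octamer ATGCAAAT, the ETS core CGGAAGT and the MEF2 site, searched as CTA and TAG with any 4 bases between them. A palindrome was counted once.
JUNB: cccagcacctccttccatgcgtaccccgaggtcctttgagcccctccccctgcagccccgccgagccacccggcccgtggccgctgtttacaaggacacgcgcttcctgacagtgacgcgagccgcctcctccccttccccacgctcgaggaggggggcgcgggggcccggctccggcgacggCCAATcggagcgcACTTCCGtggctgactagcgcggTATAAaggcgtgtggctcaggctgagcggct
JUND: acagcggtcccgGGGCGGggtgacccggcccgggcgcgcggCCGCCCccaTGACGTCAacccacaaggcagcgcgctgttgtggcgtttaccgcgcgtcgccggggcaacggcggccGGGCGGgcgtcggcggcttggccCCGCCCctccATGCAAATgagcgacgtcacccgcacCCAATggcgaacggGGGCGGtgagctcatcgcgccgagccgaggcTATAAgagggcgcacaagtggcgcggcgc
KLF2: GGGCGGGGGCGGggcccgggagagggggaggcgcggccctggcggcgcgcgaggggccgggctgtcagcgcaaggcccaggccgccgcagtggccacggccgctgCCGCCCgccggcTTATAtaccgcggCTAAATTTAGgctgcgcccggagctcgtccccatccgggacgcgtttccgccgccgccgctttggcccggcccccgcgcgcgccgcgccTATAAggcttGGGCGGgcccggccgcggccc

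The windows were GC-rich. G and C made up 70.8% of the bases before JUNB, 74.8% before JUND and 80.0% before KLF2, against a median of 64.8% over the 5311 genes of the table with a RefSeq promoter here. The first 50 transcribed bases were 72.0% GC in JUNB, 88.0% in JUND and 84.0% in KLF2, against a median of 68.0%. For those transcribed bases, 99.1% of the table's genes had a lower share than JUND, 96.6% a lower share than KLF2 and 64.4% a lower share than JUNB.

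All 3 windows held TATAA on the gene's strand shortly before the start, with its first base 31 bases before it in JUNB and KLF2 and 29 bases before it in JUND. It was found in 10.6% of the table's promoters and in 19.6% of the 27305 promoters in the RefSeq table, in windows of the same length on either strand. CCAAT was present before JUNB and JUND and was found in 36.3% of the table's promoters. GGGCGG matched 5 times before JUND, 4 times before KLF2 and 0 times before JUNB, against 68.5% of the table's promoters with a match. The palindrome TGACGTCA, the letters bound by the CREB and ATF factors, was found before JUND and in 3.18% of the table's promoters, and ATGCAAAT before JUND and in 0.998%. The KLF2 window held a match to the MEF2 letters, CTAAATTTAG, as did 1.68%, and the JUNB window an ETS core found in 13.0%. None of the 3 held TGANTCA, which 3.71% did. These matches describe letters only.

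The first comparison asked how much of each transcript the antibody had removed. JUNB and JUND were brighter in the supernatant than in the input, and KLF2 was slightly dimmer, but none of the 3 differences passed the test over all genes. JUNB had intensities of 232.7 in input A, 257.2 in input B, 278.0 in supernatant A and 281.3 in supernatant B. Both supernatants lay above both inputs, and the inputs differed more from each other than the supernatants did. The mean was 244.97 ± 17.4 in the input and 279.7 ± 2.32 in the supernatant (SD, n = 2), a log2 change of 0.19 ± 0.10 (SE, limma adjusted p = 1.00). For JUND, the intensities were 107.995 in input A, 116.9 in input B, 133.4 in supernatant A and 143.1 in supernatant B. Again both supernatants were above both inputs. The means were 112.5 ± 6.30 and 138.3 ± 6.86 (SD, n = 2), and the log2 change was 0.30 ± 0.10 (SE, limma adjusted p = 1.00).

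KLF2 differed in the opposite direction. Its intensities were 65.4 in input A, 58.84 in input B, 58.78 in supernatant A and 54.98 in supernatant B. The groups did not overlap, but supernatant A and input B were almost equal. The mean was 62.1 ± 4.67 in the input and 56.9 ± 2.69 in the supernatant (SD, n = 2), and the log2 change was -0.13 ± 0.10 (SE, limma adjusted p = 1.00).

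**Figure D1:**
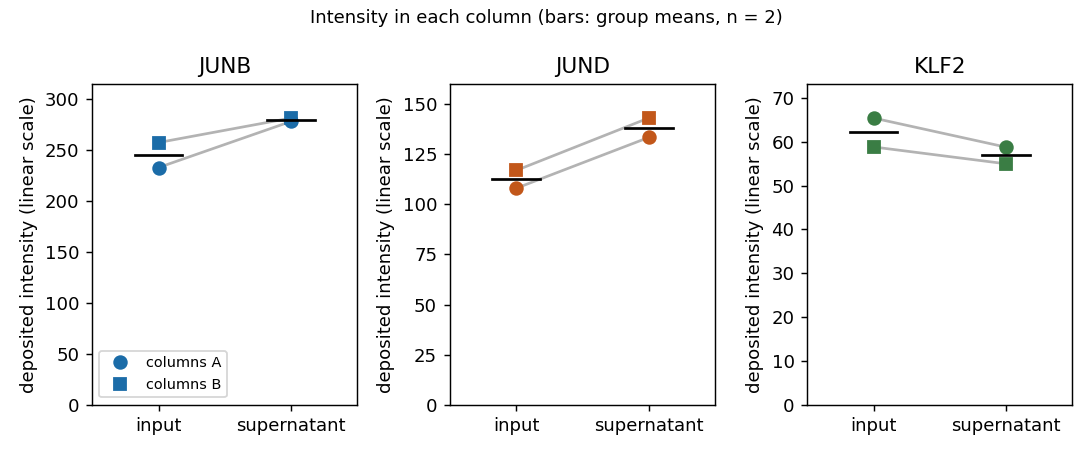
Deposited intensity (linear scale, from 0) of JUNB, JUND and KLF2 in the input and supernatant columns. Circles are columns A, squares columns B, grey lines join columns of one letter and black bars are group means (n = 2). In both letters the supernatant point is above the input point for JUNB and JUND and below it for KLF2.

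The background sets how these values read. At an adjusted p under 0.05 the limma test of all 6434 genes put 0 below the input (0.0%) and 1 above it (0.0155%). That gene, ZNF134, is a zinc-finger gene with no m1A peak, and it was named after its value was seen. The count above the input was 0 among genes at least as bright as the dimmest one-peak gene. It was also 0 with 32 added to each intensity. At an unadjusted p under 0.05, 40 genes were lower (0.622%) and 90 higher (1.4%), together 2.02%, a split that became 77 lower and 53 higher once columns were recentred by their non-m1A medians. JUND was the member called by the unadjusted rule. The limma p before adjustment was 0.0335 for JUND, 0.111 for JUNB and 0.284 for KLF2, and the adjusted p was 1.00 for each. Groups did not overlap in 23.0% of all genes. Supernatants lay wholly above inputs in 16.6% (15.9% of one-peak genes), as in JUNB and JUND, and wholly below in 6.37% (6.24% of one-peak genes), as in KLF2. The supernatant columns were also brighter in general, with a median log2 change of 0.04 over all genes.

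The intervals give each transcript's supernatant level relative to the input on the deposited scale. They take a ratio of 1 as no loss, whereas the deposited fractions take 1.29. How the columns were scaled is not known here, so a loss shared by most transcripts is not bounded by them. The supernatant held 123% of the input level of JUND (95% interval 102.5% to 147.5%), 114% of that of JUNB (95.5% to 137%) and 91.6% of that of KLF2 (75.7% to 111%). The lower limit for JUND depended on the scaling and on single columns. Its log2 interval ran from 0.04 to 0.56 as deposited, from -0.06 to 0.52 with columns recentred by their non-m1A medians, and from -0.03 to 0.51 after quantile normalization. The lower limit was also below 0 without input A (-0.07), without supernatant A (-0.12) and without supernatant B (-0.22). The interval for KLF2 includes both a loss and a gain. Its lower log2 limit was -0.40, and -0.65 without supernatant A.

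The columns of one letter were also set against each other, although the labels do not say that a letter pairs them. The authors' deposited ratios follow the letters, since means of same-lettered ratios, divided by 1.29, reproduced them within 0.0052 for one-peak genes. In pair A the log2 ratio of supernatant to input was 0.26 for JUNB, 0.30 for JUND and -0.15 for KLF2. In pair B it was 0.13, 0.29 and -0.10 for the same genes. Over all genes the ratio was above 0 in both pairs in 40.3% and below 0 in both in 14.4%. JUND therefore gave nearly the same ratio in both pairs, with a gap of 0.0132. Among the 1234 one-peak genes within 0.5 of its brightness on the log2 scale, the median gap was 0.117. The gap was 0.128 for JUNB, against a median of 0.104 over 1104 genes of like brightness, and 0.0569 for KLF2, against 0.154 over 918 genes.

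The one-peak genes end at a mean ratio of 1.2916, just under 1.2917, the mean ratio over non-m1A genes. Ranks on the high side are therefore limited by that end, and JUND, at a mean ratio of 1.23, lies not far below it. Counting JUND itself, 10 one-peak genes had log2 ratios at least as high as its lower value in both pairs, 0.192% of 5210. The same count was 249 genes (4.78%) for JUNB and, on the low side, 124 genes (2.38%) for KLF2. Of the one-peak genes of like brightness, 1.22% had a higher log2 change than JUND, 3.08% a higher one than JUNB and 95.4% a higher one than KLF2. With non-m1A genes of like brightness included, these shares were 1.29% of 1395 genes, 3.13% of 1214 and 94.3% of 1162. The one-peak genes had median log2 changes of 0.05, 0.03 and 0.07, with SDs across genes of 0.11, 0.09 and 0.12. These ranks describe one set of 4 columns and carry no test, and the members were chosen with earlier results of these data known.

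**Figure D2:**
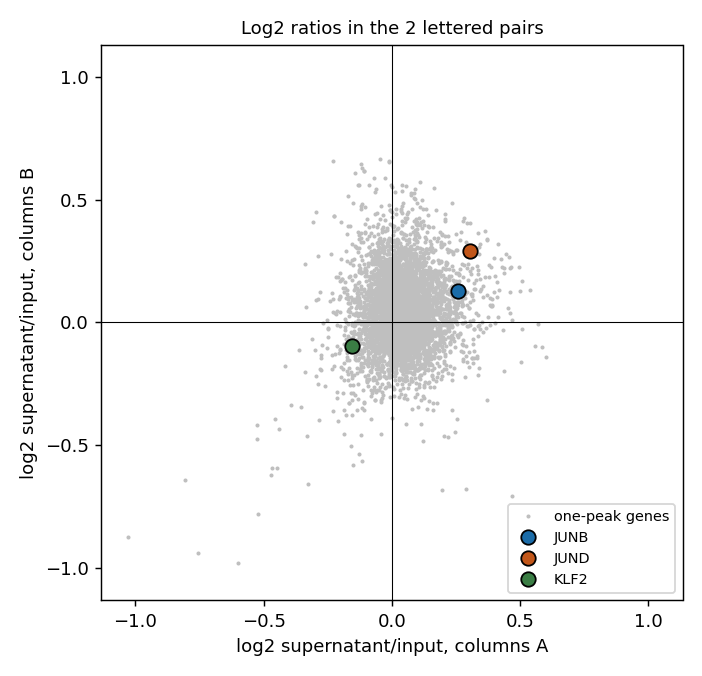
Log2 ratio of supernatant to input in columns A (horizontal) and in columns B (vertical) for the 5210 one-peak genes (grey points), with JUNB, JUND and KLF2 marked. JUNB and JUND sit in the quadrant where both ratios are above 0, JUND at 0.30 and 0.29, and KLF2 sits in the opposite quadrant at -0.15 and -0.10.

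A ratio of 2 genes within a column is not altered by a constant factor for that column, so the members were also set against each other. The log2 ratio of JUND to KLF2 was 0.72 in input A, 0.99 in input B, 1.18 in supernatant A and 1.38 in supernatant B. Both supernatant values exceeded both input values, by 0.42 on average (pair A 0.46, pair B 0.39). JUNB over KLF2 had input values of 1.83 (A) and 2.13 (B) and supernatant values of 2.24 (A) and 2.36 (B), a mean difference of 0.32. JUND over JUNB was -1.11 and -1.14 in the inputs and -1.06 and -0.98 in the supernatants, a mean difference of 0.11. With 32 added to each intensity the differences were 0.32, 0.25 and 0.07 in the same order. In each of these 3 comparisons the groups did not overlap and the exact permutation test gave a two-sided p = 0.333, which is the smallest that 2 columns against 2 allow (adjusted p = 0.333 over 3 comparisons). A p below 0.05 could not be reached in this design.

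The second comparison concerned the methylated share of the 3 transcripts. The authors' deposited table gives a fraction of 0.05 for JUND, 0.11 for JUNB and 0.29 for KLF2, beside a median of 0.21 over the one-peak genes. By the authors' deposited table, 58 one-peak genes had a lower fraction than JUND and 11 others shared its value, 262 were lower than JUNB, and 153 were higher than KLF2. The authors' deposited table thus places the members on both sides of the median. The fractions use the same 4 intensities as the ratios above and add no independent measurement.

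The size of these fractions rests on a divisor. A deposited fraction equals 1 minus the mean of both ratios over 1.29, the average that the 1224 non-m1A genes gave. The median ratio of the non-m1A genes was 1.05, and the mean over the 694 of them at least as bright as the dimmest one-peak gene was also 1.05. With this bright mean as divisor the fraction was -0.09 for JUNB, -0.17 for JUND and 0.13 for KLF2. With no divisor it was -0.14, -0.23 and 0.08. A fraction below 0 means a ratio above the divisor. Only with no divisor does that equal more signal in the supernatant than in the input. The deposited fractions of JUNB and JUND were above 0 although their mean ratios were 1.14 and 1.23. The sign for JUNB and JUND therefore changed with the divisor, while KLF2 stayed above 0 with all 4 divisors. Neither outcome is a test. The mean ratio of KLF2, 0.916, is below every divisor used, and its 95% interval for the level left reaches 111%. No one-peak gene can have a deposited fraction below 0, since their mean ratios end at 1.2916, just under the authors' divisor. The order of the 3 genes is fixed by their ratios and cannot change with a constant divisor.

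**Figure D3:**
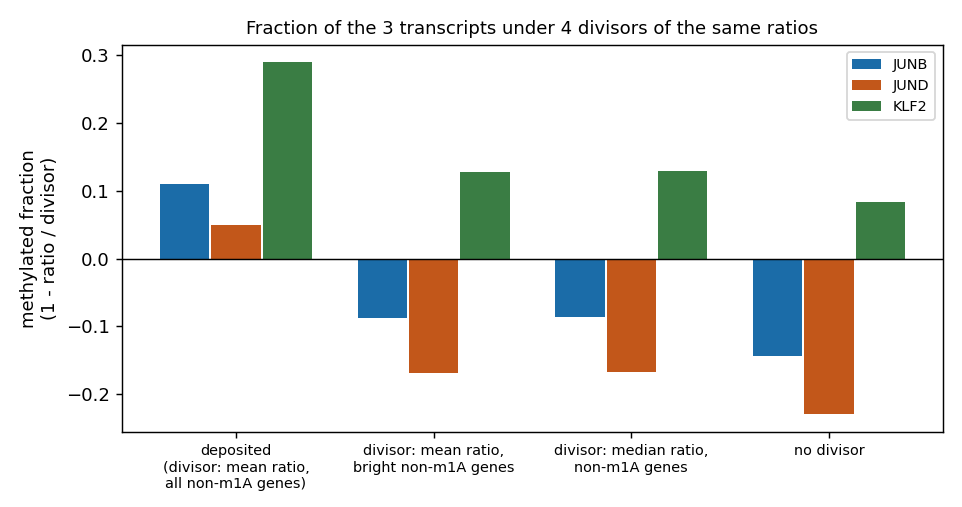
Methylated fraction of JUNB, JUND and KLF2, computed as 1 minus the mean ratio over a divisor, with the deposited values at the left and 3 other divisors beside them. JUNB and JUND stand above 0 in the deposited values (0.11 and 0.05) and below 0 with each other divisor, and KLF2 stands above 0 with all 4.

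The third comparison set the members beside their families and the other genes of the early response. Lists were written from general knowledge, older and current names both included. Of the 100 symbols in the AP-1, KLF and SP, and other early-response lists, 44 were in the gene table, 39 of them one-peak genes. None passed (lowest limma adjusted p = 1.00). The log2 change lay within 0.25 of 0 in 42 of these 44 genes (95.5%), against 92.9% of all genes, and JUND and NRL lay outside it.

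In the AP-1 family, 7 of 22 symbols were listed and 0 passed in either direction, against 0.0% lower and 0.0155% higher over all genes. Supernatants lay wholly above inputs in 3 of the 7 (JUNB, JUND and NRL), against 16.6% of all genes. They lay wholly below in 0, against 6.37%. At an unadjusted limma p under 0.05, JUND and NRL were higher and 0 lower, 28.6% against 2.02% of all genes. The median log2 change was 0.16, against 0.04 over all genes. This median depended on the dim gene NRL and on the brightness of the set: relative to all genes it was 0.11 over the 7, 0.05 over the 6 at least as bright as the dimmest one-peak gene and 0.003 over the 3 above the median intensity. NRL, a retinal leucine-zipper factor and a non-m1A gene, had intensities of 4.28 and 4.62 in the inputs and 7.33 and 10.6 in the supernatants, a log2 change of 0.99 ± 0.20 (SE, limma adjusted p = 1.00). FOS, the partner of the JUN proteins, had input intensities of 478.4 (A) and 809 (B) and supernatant intensities of 501 (A) and 805 (B). The letters thus differed far more than the groups in FOS, and its log2 change was 0.03 ± 0.35 (SE). The stress-response factors ATF4 and ATF3 had log2 changes of -0.01 ± 0.14 and -0.04 ± 0.17, and ATF2, which JNK kinases phosphorylate, had 0.16 ± 0.17 (SE). JUN itself and the other FOS-family genes are not listed in the gene table.

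Of the KLF and SP family, 9 of 26 symbols were listed and 0 passed, against 0.0% lower and 0.0155% higher over all genes. Their median log2 change was 0.036, against 0.041 over all genes, and their median less that of all genes ran from -0.09 without input A to 0.06 above the median intensity. KLF2 had the lowest value of the 9. Supernatants lay wholly below inputs in 1 of the 9, KLF2, against 6.37% of all genes, and wholly above in 0, against 16.6%. The pluripotency factor KLF4 had a log2 change of 0.16 ± 0.20, KLF10, a TGF-beta response gene, 0.13 ± 0.14 and KLF9, a glucocorticoid response gene, 0.05 ± 0.12 (SE). KLF5, KLF13 and KLF16 were at 0.01 ± 0.11, 0.005 ± 0.10 and -0.01 ± 0.09, and SP1, which binds GC boxes, at 0.04 ± 0.14 (SE). The deposited fractions of the 8 one-peak members ran from 0.14 to 0.29 in the authors' deposited table.

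The other early-response genes numbered 28 of 52 symbols, and 0 passed, against 0.0% lower and 0.0155% higher over all genes. Their median log2 change was 0.04, with a range from -0.12 to 0.24. RHOB, a small GTPase induced by growth factors, was highest at 0.24 ± 0.13 (SE), with intensities of 106.9 and 129.96 in the inputs and 133.5 and 145 in the supernatants. GADD45A, a DNA damage response gene, was lowest at -0.12 ± 0.12 (SE). IER2 had 0.15 ± 0.20, MYC 0.14 ± 0.20, the phosphatase gene DUSP1 0.08 ± 0.09 and ZFP36, which encodes a protein that binds AU-rich elements and promotes decay, 0.07 ± 0.12 (SE). Supernatants lay wholly above inputs in 3 of the 28, RHOB, DUSP1 and TRIB1, against 16.6% of all genes.

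**Figure D4:**
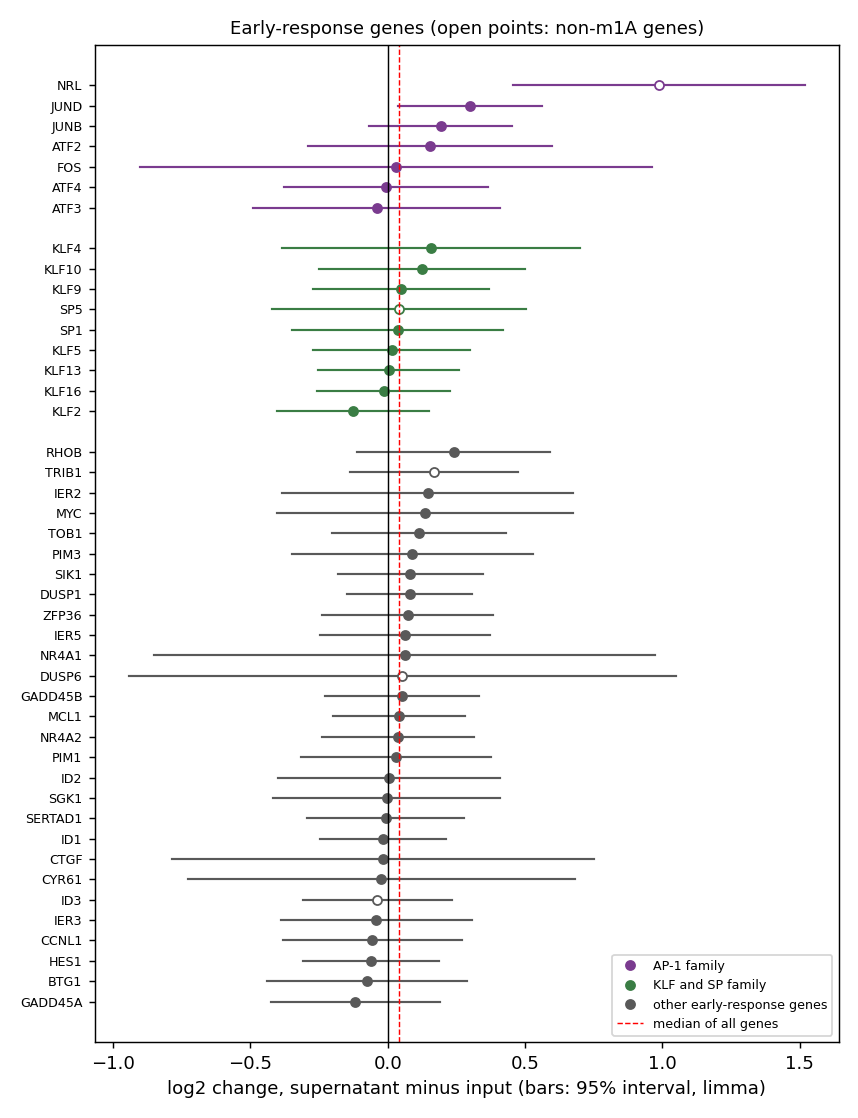
Log2 change, supernatant minus input, with its 95% interval from limma for the 44 listed early-response genes in 3 families. Filled points are one-peak genes, open points non-m1A genes, and the dashed line is the median of all genes (0.04). JUND and NRL are the genes outside 0.25 of 0, and KLF2 is the lowest of the KLF and SP family.

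The genes that act on these factors showed no passing change either. Of the 39 symbols for upstream kinases and factors, 20 were listed and 0 passed, against 0.0% lower and 0.0155% higher over all genes. Their median log2 change was 0.02, against 0.04 over all genes. Supernatants lay wholly above inputs in 2 of these 20, against 16.6% of all genes, and wholly below in 1, against 6.37%. RPS6KA3, a kinase activated by ERK, had a log2 change of -0.72 ± 0.09 (SE, limma adjusted p = 1.00, unadjusted p = 0.000893). MAP2K4, which activates JNK, had 0.17 ± 0.09, MEF2A, a factor that binds the MEF2 letters, 0.16 ± 0.10 and RPS6KA1 0.25 ± 0.20 (SE). Of the 35 symbols for ubiquitin ligases and decay factors, 22 were listed, 0 passed and the median was 0.08. Supernatants lay wholly above inputs in 7 of these 22, against 16.6% of all genes, and wholly below in 0, against 6.37%. At an unadjusted limma p under 0.05, 2 of the 22 were higher and 0 lower, 9.09% against 2.02% of all genes. CNOT1, the scaffold of the deadenylase complex that shortens poly(A) tails, had 0.31 ± 0.10, the dim non-m1A gene CNOT4 0.47 ± 0.12, PAN3 0.17 ± 0.09 and FBXW7, a ubiquitin ligase subunit that recognises JUN and KLF2, 0.30 ± 0.19 (SE).

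The letters A and B differed strongly for some early-response genes, though not for the members. FOS was 1.69 times higher in input B than in input A and 1.61 times higher in supernatant B than in supernatant A. NR4A1, an orphan nuclear receptor gene of the early response, was 1.70 and 1.56 times higher, and CYR61, a secreted matrix protein gene, 1.45 times higher in both. CTGF, related to CYR61, was 1.41 and 1.59 times higher. Of the 44 early-response genes, 3 (FOS, NR4A1 and CYR61) were higher in B by at least 0.5 on the log2 scale in both fractions and 0 were lower, against 0.699% higher and 0.591% lower over all genes. This margin was chosen after the values were seen, and 1 column per letter and fraction gives no test. Without a margin, B was above A in both fractions in 20 of the 44. Other list genes were lower in B. The level in B relative to A was 0.72 in the inputs and 0.82 in the supernatants for KLF4. It was 0.69 and 0.90 for MYC, and 0.50 and 0.74 for the dim non-m1A gene DUSP6. JUNB differed by 0.14 in the inputs and 0.02 in the supernatants, JUND by 0.11 and 0.10, and KLF2 by -0.15 and -0.10, all as log2 of B over A. The sources used here do not say what the letters stand for.

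**Figure D5:**
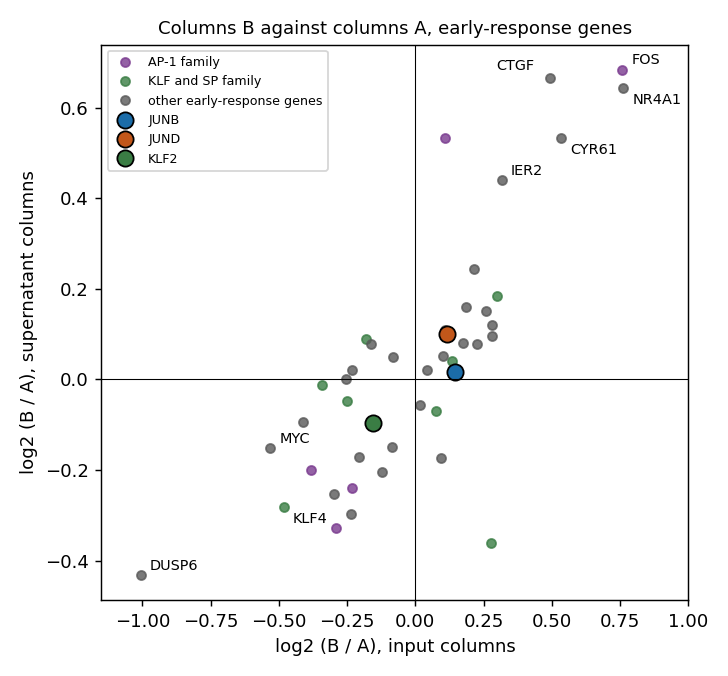
Log2 of column B over column A in the inputs (horizontal) and in the supernatants (vertical) for the 44 early-response genes, with JUNB, JUND and KLF2 as large points. FOS, NR4A1, CYR61 and CTGF lie at the upper right, DUSP6, KLF4 and MYC at the lower left, and the 3 members lie within 0.16 of 0 on both axes.

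By the pattern over the 4 columns, the one-peak genes most like JUND were HOXC11, C16orf58, PEX19, VPS11 and N6AMT2, with log2 changes from 0.25 to 0.35. Likeness was the Euclidean distance between log2 intensities less each gene's mean, among 2361 genes within 1 log2 unit of its level, and ran from 0.0483 to 0.0745 for these 5. Those most like JUNB among 2189 genes were NPEPPS, BRAT1, ASF1B, ARFIP2 and SZRD1, at distances from 0.0303 to 0.0493 and log2 changes from 0.15 to 0.20. For KLF2, among 1519 genes, they were C2orf42, UNK, MPDZ, STK32C and CDADC1, at distances from 0.0446 to 0.0691 and log2 changes from -0.15 to -0.06.

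The members share a chromosome, and their neighbours and base composition are given as values. The part of either in the members' values was not tested. The 338 chromosome 19 genes of the table had a median log2 change of 0.02. The nearest measured neighbours of JUNB were ASNA1 at 0.23 ± 0.11 and PRDX2 at -0.05 ± 0.10, those of JUND were KIAA1683 at -0.03 ± 0.11 and LSM4 at -0.01 ± 0.11, and those of KLF2 were AP1M1 at 0.11 ± 0.16 and EPS15L1 at 0.07 ± 0.09 (SE). In RefSeq the gene HOOK2 overlaps JUNB. HOOK2 is not listed in the gene table, and which of the overlapping bases the probes cover was not known here. Over the 4330 one-peak genes with a promoter (83.1%), the median log2 change was 0.04 in the lowest of 4 bins of upstream GC share and 0.04 in the highest. The Spearman correlation across genes between upstream GC share and log2 ratio was close to 0 in both pairs (A 0.0521, B -0.0230). The GC share of the transcripts was not compared with the ratios. Genes share the same 4 columns and are not independent replicates.

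The columns bear on all of these values. Median intensities of all genes were 170.8 (A) and 171.0 (B) in the input and 176.9 (A) and 177.1 (B) in the supernatant. The labelled cell line was only partly checkable, since the table lists genes with 1 m1A peak or none. Among hepatocyte markers, APOE was listed at intensities from 26.2 to 33.8 and FOXA1 from 84.95 to 128.4, and albumin is not listed. Of the other marker lists, 2 of 5 epithelial (1656 to 5692), 5 of 8 mesenchymal (49.8 to 6569), 1 of 5 leukocyte (30.1 to 42.4) and 0 of 4 endothelial markers were listed. No column name gives a cell line.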

How the data were processed

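Affymetrix arrays of HepG2 input (n = 2) and supernatant (n = 2) RNA were used. The submitters' processing notes name RMA, and no source used here gives the gene table's own processing. Its intensity values, per gene and on a linear scale, are as deposited, down to 0.03. The ratio and fraction columns are also as deposited by the authors. Recomputed mean ratios, divided by 1.29, came within 0.0052 of the deposited ones for one-peak genes. Groups came from column names, and letters were not matched to replicate numbers. The probe-set value table has no gene names and was not used.

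Log2 intensities (no pseudocount) of all 6434 genes entered an unpaired linear model (limma 3.58.1, R 4.3.3, lmFit and eBayes) with Benjamini-Hochberg adjustment at 0.05, after a check on simulated data. Python 3.11.15, NumPy 2.4.6, pandas 2.3.3, SciPy 1.17.1 and matplotlib 3.10.9 were used. Of the symbols, 5924 were current in RefSeq, 478 matched 1 older symbol and 32 matched none. Members and lists were chosen with earlier results of these data known. The number of arrays limits the precision. Named genes are the 3 members, measured list genes, 4 regulators a list by limma statistic and the 5 most similar genes per member. Motifs, the margin of 0.5 between letters, the range of 0.25 and the ranks in both pairs were chosen after the values were seen. Alternatives covered a block, filters, a trended prior, offsets, scaling, columns left out and divisors.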

Additional observations from a re-analysis of the deposited data

How the results depend on the processing

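JUNB, JUND and KLF2 kept their direction in every alternative run for them, and none passed in the fits on all 4 columns. Most alternatives could not have reversed that direction. The block, the filters and the trended prior leave a log2 change as it is. Groups that do not overlap keep their order with an offset or with 1 column left out. Recentring columns by their medians, over all genes or non-m1A genes, lowers every log2 change equally, since the supernatant medians were higher. KLF2 could thus only move further below 0, and the shift was smaller than the changes of JUNB and JUND. Recentring by the non-m1A medians gave 0.13, 0.23 and -0.19. Quantile normalization, which does not shift all genes equally, gave 0.15, 0.24 and -0.18. Over all alternatives the log2 change ran from 0.12 to 0.27 for JUNB, 0.23 to 0.36 for JUND and -0.20 to -0.05 for KLF2. Leaving out 1 column gave 0.12 to 0.27, 0.24 to 0.36 and -0.20 to -0.05. JUND and KLF2 were below the median intensity and have no value under that filter. With the letter as a replicate block the log2 changes were 0.19, 0.30 and -0.13, with limma adjusted p of 0.800, 0.800 and 0.806, while 0 genes passed as lower and 1 as higher. Before adjustment the block called 99 lower and 268 higher, compared with 40 and 90 without it, and the fit without input A called 128 and 504. Deviations of same-lettered columns correlated at 0.451. The authors' deposited ratios follow the letters, but no label says that a letter pairs the samples.

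The count of genes higher was 0 among genes at least as bright as the dimmest one-peak gene, 0 above the median intensity, 0 with a trended prior and 0 with 32 added. With a column left out the counts ranged from 0 to 3 for lower and from 1 to 32 for higher. Both maxima came without input A, and without input B they were 1 and 11. No list member passed in any of the 13 alternatives, leave-out range 0 to 0. The AP-1 median relative to all genes ran from 0.003 to 0.24, highest without input B.

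Fractions followed the divisor. With no divisor they were -0.144 for JUNB, -0.23 for JUND and 0.0836 for KLF2. The median non-m1A ratio gave -0.0866, -0.168 and 0.1297, and the mean bright non-m1A ratio gave -0.0883, -0.1697 and 0.128. Pairs A and B alone gave 0.0751 and 0.153 for JUNB, 0.0437 and 0.0524 for JUND, and 0.305 and 0.277 for KLF2.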
